A study of Rattus norvegicus with 40 samples.

Results

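The 3p strands of the let-7 family and of miR-98 were followed in rat plasma after traumatic brain injury (TBI). The members were all miRNAs whose name starts with let-7 and ends with -3p, together with miR-98-3p. These were 12 of the 752 miRNAs in the count matrix. Let-7a-1-3p and let-7c-2-3p could not be told apart and were counted as 1 signal, which left 11 signals. The family was chosen by the read counts of its members in TBI against sham-operated rats, with rno-let-7d-3p, rno-let-7a-1-3p, rno-let-7c-2-3p, rno-let-7e-3p and rno-miR-98-3p in view, so the values of those comparisons are a description and no test is drawn from them. Whether differences between the days were also in view is not known, so p values between days may depend on the choice. The prefix rno- (rat) is left out from here on.

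Adult male Sprague-Dawley rats were subjected to lateral fluid-percussion injury, and sham-operated controls received the craniotomy without the impact. Tail-vein plasma was collected on D2 and D9. Groups were sham (n = 4), rats with TBI that later had epilepsy (TBI+, n = 7) and rats with TBI that did not (TBI−, n = 9), with epilepsy read from video-EEG in the sixth month after the injury. Each rat gave 1 library per day, which made 40 libraries, and the labels name no treatment other than the operation. Whole plasma was sequenced, so the cells that released an RNA are unknown, and fewer releasing cells cannot be told apart from less RNA released per cell.

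A let-7 hairpin is cut into a 5p and a 3p strand. The 5p strand is usually the one kept in the silencing complex, and it carries the seed for which the family is known. The 3p strand, also called the passenger or star strand, is usually present at a lower level, and its seed is a different one. In plasma such small RNAs travel inside vesicles or bound to proteins, and blood cells, liver, brain and other tissues can all release them.

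Mature sequences of 11 of the 12 members were found in RefSeq (assembly GRCr8, used here for sequences and neighbours only), and let-7c-1-3p is named without one. They are shown because the family falls apart by its seeds. Capitals mark the seed, bases 2 to 8 from the 5′ end, and the 5p strand of let-7a is added for comparison.
let-7d-3p: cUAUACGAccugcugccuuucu
let-7a-1-3p: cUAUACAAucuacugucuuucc
let-7c-2-3p: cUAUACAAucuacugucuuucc
let-7b-3p: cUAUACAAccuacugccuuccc
let-7f-1-3p: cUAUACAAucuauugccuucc
miR-98-3p: cUAUACAAcuuacuacuuucc
let-7f-2-3p: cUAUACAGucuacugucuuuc
let-7e-3p: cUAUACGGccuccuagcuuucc
let-7i-3p: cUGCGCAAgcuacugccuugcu
let-7g-3p: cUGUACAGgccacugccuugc
let-7a-2-3p: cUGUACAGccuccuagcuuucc
let-7a-5p: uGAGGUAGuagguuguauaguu

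The 11 sequences held 6 seeds. The seed UAUACAA was shared by 5 members (let-7a-1, let-7b, let-7c-2, let-7f-1 and miR-98), and UGUACAG by let-7a-2 and let-7g. Let-7d-3p, let-7e-3p, let-7f-2-3p and let-7i-3p each had a seed of their own. Let-7a-1-3p and let-7c-2-3p were identical over all 22 bases, and their counts were equal in 22 of the 40 libraries and never differed by more than 2 reads. Let-7f-2-3p differed from them at 1 of 21 positions, so a few reads could have moved between these rows.

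Levels are given as CPM, the read count divided by all miRNA reads of the library and multiplied by 1000000. The D2 libraries held 404542 to 2562083 miRNA reads. TBI libraries of D9 reached 332161 to 2864893, while the 4 sham libraries of D9 held only 140636 to 358202. A floor of 3 reads was therefore worth 8.38 to 21.3 CPM in the sham libraries of D9 and 1.05 to 9.03 CPM in the TBI libraries of that day. Such floors cover counting error only, since PCR copies are not independent molecules. The library numbers in the titles were divided here into 3 runs by their spacing, since successive libraries of a group mostly lay 8 numbers apart in run 1, 6 in run 2 and 7 in run 3. The labels give neither these runs nor their meaning, and the last library of run 2, that of TBI− rat 6 on D2, fits the spacing of run 3 as well. All sham libraries of D2 lay in run 1 and all those of D9 in run 3. The hemolysis index is the log2 ratio of the red-cell miR-451-5p to miR-23a-3p. It was higher on D9 (mean 1.25, SD 0.566, n = 20) than on D2 (−0.325, SD 0.638, n = 20). From D2 to D9, mean miR-23a-3p fell from 3860 to 1515 CPM in sham and from 3734 to 2205 CPM in TBI rats. Mean miR-451-5p went from 2783 to 3133 CPM in sham and from 3343 to 5874 CPM in TBI rats. A higher index is therefore not by itself a higher red-cell content.

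Most reads of the group came from let-7d-3p. It held 106593 of the reads, 90.5% of those of all 11 signals, and averaged 2437 CPM over the 40 libraries. The next signals by mean level were let-7a-1-3p (76.7 CPM), let-7f-2-3p (60.0 CPM) and let-7b-3p (45.3 CPM). Let-7f-1-3p, miR-98-3p, let-7i-3p and let-7e-3p averaged 14.6, 13.7, 10.6 and 10.3 CPM. Let-7c-1-3p (107 reads in all), let-7g-3p (69 reads) and let-7a-2-3p (7 reads) were at the edge of detection. All 11 signals had a read on each day and entered every fit.

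On D2, let-7d-3p was highest in the sham-operated rats. The sham libraries had 4107, 5019, 5018 and 3092 CPM. In TBI+ rats the lowest, median and highest values were 1823, 2694 and 3315 CPM, and in TBI− rats they were 1083, 1645 and 2759 CPM. Of the 16 TBI rats, 14 were below every sham rat, but the ranges overlapped. Against sham, the log2 fold change of TBI rats was −0.95 (SE 0.21), that of TBI+ rats −0.69 (SE 0.22) and that of TBI− rats −1.19 (SE 0.21).

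On D9, the order of the groups was another one. The sham libraries had 1244, 1351, 1727 and 1443 CPM of let-7d-3p. TBI+ rats lay between 1147 and 2625 CPM, with a median of 1700, and TBI− rats between 1336 and 4821 CPM, with a median of 3241. TBI rats were above every sham rat in 11 of 16 cases and below every one in 1. The log2 fold change against sham was 0.93 (SE 0.33) for all TBI rats, 0.50 (SE 0.33) for TBI+ rats and 1.20 (SE 0.33) for TBI− rats.

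Ranked by mean level, let-7d-3p stood at 4309 ± 918 CPM in sham on D2 (SD, n = 4), 3110 ± 1234 in TBI− on D9 (n = 9), 2569 ± 568.2 in TBI+ on D2 (n = 7), 1853 ± 523 in TBI+ on D9 (n = 7), 1726 ± 507 in TBI− on D2 (n = 9) and 1441 ± 207 in sham on D9 (n = 4). Neighbours in this order differed by more than their pooled SD at the first step and between TBI+ on D2 and TBI+ on D9. The other 3 steps were smaller than the spread between rats.

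**Figure D1:**
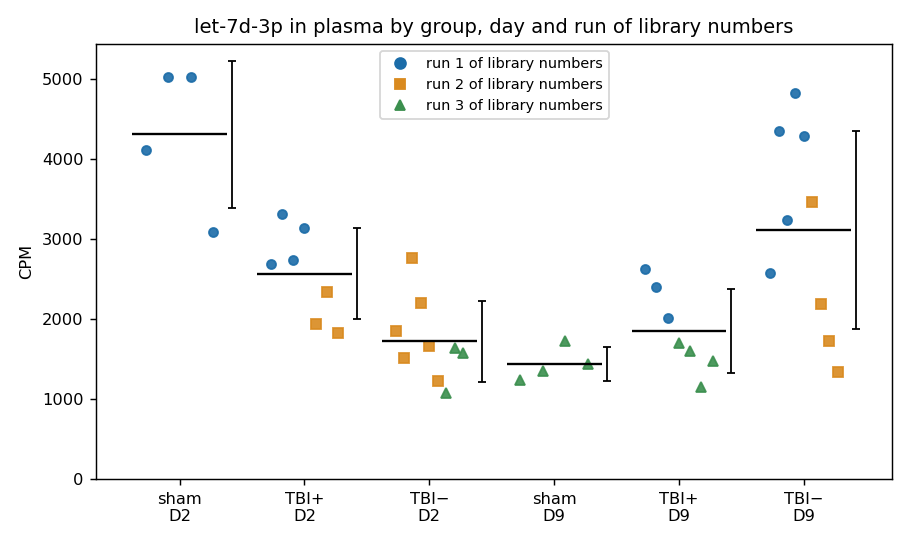
Let-7d-3p in CPM (linear axis from 0) for each library, by group and day. Points are rats, marked by their run of library numbers, horizontal lines are group means and the bars beside them are SD. Sham rats on D2 are the highest group, and in each of the 4 groups that span 2 runs the mean is higher in the run with the lower library numbers.

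The level of let-7d-3p moved with the run of library numbers in all 4 groups that spanned 2 runs. In TBI+ rats on D2, the 4 libraries of run 1 averaged 2972 CPM (SD 305) and the 3 of run 2 averaged 2032 CPM (SD 267). In TBI− rats on D2, the 6 libraries of run 2 averaged 1871 CPM (SD 545) and the 3 of run 3 averaged 1434 CPM (SD 306), and with the D2 library of TBI− rat 6 placed in run 3 the means were 2001 (n = 5) and 1382 CPM (n = 4). On D9, TBI+ rats averaged 2347 CPM in run 1 (n = 3, SD 307) and 1482 CPM in run 3 (n = 4, SD 240), and TBI− rats 3854 CPM in run 1 (n = 5, SD 919) and 2180 CPM in run 2 (n = 4, SD 925). Over all groups, run 3 held no library above 1727 CPM and run 1 none below 2018 CPM. Beside the 6 groups in one edgeR quasi-likelihood fit, the run term of let-7d-3p had log2 values of −0.60 for run 2 and −0.87 for run 3 against run 1. It ranked 3 of 581 miRNAs by p, with an adjusted p of 0.111, so it did not pass the threshold, and with edgeR no miRNA did (34 had an unadjusted p below 0.05). With the D2 library of TBI− rat 6 in run 3, let-7d-3p ranked 2 with an adjusted p of 0.0721. DESeq2 was not run for this term.

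Within 1 run, sham rats 1 to 4 could be set against TBI+ rats 1 to 4. The log2 fold change of let-7d-3p was then −0.51 on D2 (run 1) and 0.05 on D9 (run 3), where sham libraries averaged 1441 CPM and TBI+ libraries 1482 CPM. With the run as a term in the fit, chosen after seeing the data, the difference between all TBI rats and sham was −0.51 on D2 and 0.14 on D9, wherever the D2 library of TBI− rat 6 was placed. With the library number itself as a linear term, which needs no runs, it was −0.57 and 0.27. TBI− rats shared no run with sham rats on either day, so for them the run and the injury cannot be told apart within a run. Run and sham day are tied as well, since all 4 sham rats passed from run 1 to run 3.

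The second signal with a sham difference was let-7a-1-3p, the strand with the shared seed UAUACAA. On D2 its level was 88.7 ± 17.8 CPM in sham (SD, n = 4), 87.4 ± 27.3 in TBI+ (n = 7) and 82.1 ± 18.7 in TBI− rats (n = 9), and neighbouring means differed by less than the spread between rats. On D9 the sham libraries had 35.6, 24.7, 9.90 and 41.9 CPM, which were 5, 4, 2 and 15 reads. TBI+ rats lay between 58.7 and 92.6 CPM, with a median of 78.4, and TBI− rats between 21.1 and 101.3 CPM, with a median of 87.8. TBI rats were above every sham rat in 15 of 16 cases, and the exception was TBI− rat 2, with 7 reads in a library of 332161. The log2 fold change of TBI against sham was 1.57 (SE 0.41), and within run 3 that of TBI+ against sham was 1.29.

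MiR-98-3p, which has the same seed, was at the detection limit in the sham libraries of D9. They held 0, 1, 0 and 1 reads, against 11 to 24 reads in the sham libraries of D2. Over all libraries of a group, TBI rats had 393 reads of miR-98-3p on D9 in 20410969 (19.3 CPM) and sham rats 2 in 863022 (2.32 CPM), a ratio of 8.31 with an exact 95% counting interval of 2.28 to 68.8. On D2 the same ratio was 0.747 (0.564 to 1.00). These intervals treat pooled reads as independent and leave out the spread between rats. They describe values by which the member was chosen and are not a test. TBI rats lay between 3.01 and 28.1 CPM on D9, and 15 of 16 were above every sham rat. The exception was again TBI− rat 2, with 1 read. The sham levels rest on so few reads that a single empty library allows up to 21.3 CPM (3 reads in 140636), while the TBI median was 18.4 CPM.

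With edgeR over all miRNAs of the day (adjusted p below 0.05), 1 of the 11 signals was called between TBI and sham rats on D2, let-7d-3p, where 6.19% of 565 miRNAs were called. Of all miRNAs 3.19% were higher and 3.01% lower. On D9 there were 2, let-7a-1-3p and miR-98-3p, both higher, where 3.51% of 541 were called (1.11% higher, 2.40% lower). TBI− against sham gave 1 signal on D2 (let-7d-3p, 6.19% of all called) and 3 on D9 (let-7a-1-3p, let-7d-3p and miR-98-3p, all higher, where 4.81% were called and 1.29% higher). TBI+ against sham gave 0 on D2 (3.19% called, 2.30% higher and 0.885% lower) and 0 on D9 (1.85%), while DESeq2 gave 0 on D2 and 1 on D9, let-7a-1-3p. At an unadjusted p below 0.05, 1 and 2 of the signals passed, where 93 of 565 and 86 of 541 miRNAs did. No signal had TBI and sham ranges that did not overlap, where 1.24% of all miRNAs had TBI wholly higher and 0.885% wholly lower on D2, and 0.370% and 0.185% on D9. These counts belong to the values by which the family was chosen, so nothing is read from them. Without sham rat 2, none of the 541 miRNAs was called on D9 in any of the 3 sham comparisons. Without sham rat 1 or 4, let-7a-1-3p alone was called for TBI against sham on D9, and without sham rat 3 no signal was. TBI− against sham on D9 kept 0 signals without sham rat 1, let-7d-3p without rat 3 and let-7a-1-3p without rat 4. Without sham rat 4, TBI+ against sham gave let-7d-3p on D2 and let-7a-1-3p on D9.

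**Figure D2:**
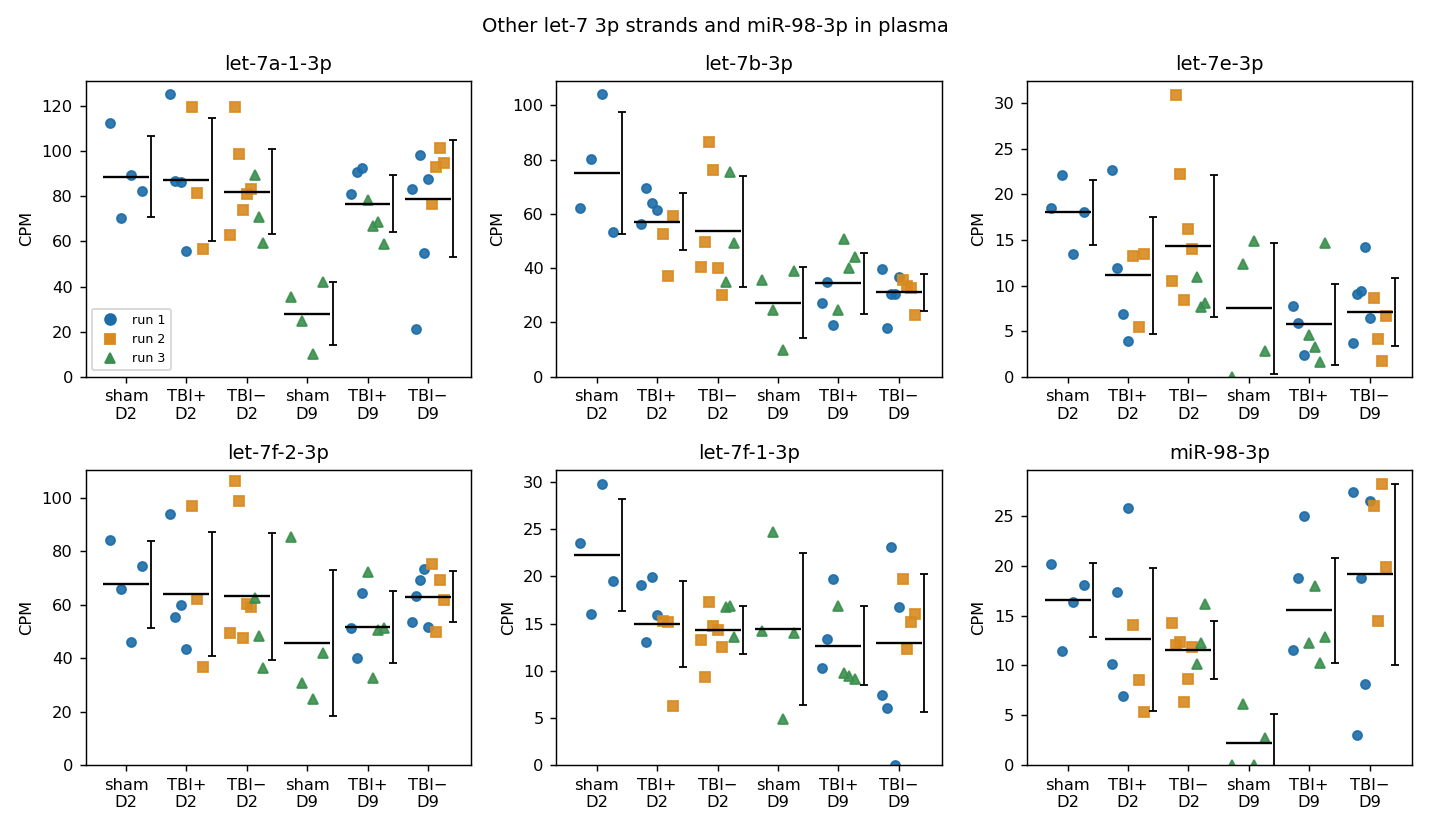
CPM of 6 other signals for each library (linear axes from 0), by group and day, with points marked by run of library numbers, lines at the group mean and SD bars. The sham rats of D9 lie at 9.90 to 41.9 CPM for let-7a-1-3p and at 0 to 6.17 CPM for miR-98-3p, and let-7b-3p and let-7e-3p are lower on D9 than on D2.

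None of the remaining signals was called between sham and TBI rats. Let-7b-3p was at 75.0 ± 22.5 CPM in sham and 55.2 ± 16.4 in TBI rats on D2, and at 27.3 ± 13.1 and 32.5 ± 8.92 CPM on D9 (SD, n = 4 and 16). Let-7e-3p was at 18.0 ± 3.59 and 12.9 ± 7.17 CPM on D2 and at 7.49 ± 7.21 and 6.50 ± 4.00 CPM on D9. Of the TBI rats, 8 were below every sham rat on D2 for let-7b-3p and 10 for let-7e-3p. On D9 none was for either, but a sham library of D9 held 0 reads of let-7e-3p, so none could be. For let-7b-3p the lowest sham library of D9 held 2 reads. Let-7f-2-3p was at 67.6 ± 16.1 CPM in sham and 63.5 ± 22.7 in TBI rats on D2, and at 45.7 ± 27.4 and 58.1 ± 12.4 CPM on D9. Let-7f-1-3p was at 22.2 ± 5.90 and 14.6 ± 3.40 CPM on D2 and at 14.5 ± 8.06 and 12.8 ± 5.94 CPM on D9. On D2, 11 of 16 TBI rats were below every sham rat for let-7f-1-3p, and the signal was not called. Let-7i-3p averaged between 8.08 and 16.1 CPM in the 6 groups, always with overlapping ranges. Let-7c-1-3p averaged between 0.698 and 3.06 CPM and had more than 3 reads in 12 libraries. Let-7g-3p was detected in 19 libraries, with 0 of 863022 reads in the sham rats of D9, which allows up to 3.48 CPM, and let-7a-2-3p in 6 libraries with at most 2 reads.

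The comparison of TBI+ with TBI− rats asked whether the strands differ by later epilepsy. It was not used to choose the members, but it rests on the same TBI libraries. None of the 11 signals was called on D2, where edgeR called 0% of 565 miRNAs and DESeq2 also 0 (38 had an unadjusted p below 0.05), and none on D9, where edgeR called 0% of 541 and DESeq2 0 (22 unadjusted). The median log2 fold change over the 11 signals was 0.0055 on D2 and −0.25 on D9, beside −0.047 and −0.010 over all miRNAs. Let-7d-3p was the single member with an unadjusted p below 0.05 on either day. It was higher in TBI+ rats on D2 (log2 fold change 0.50, SE 0.18, adjusted p = 0.488) and lower in them on D9 (−0.69, SE 0.27, adjusted p = 0.802). Neither value passed the adjusted threshold. Over the alternatives its adjusted p ran from 0.322 to 1 on D2 and from 0.604 to 0.994 on D9. Within run 2, which held 3 TBI+ and 6 TBI− libraries on D2, the difference was 0.16 (without TBI− rat 6, TBI+ libraries averaged 2032 CPM and the other 5 TBI− libraries 2001 CPM), and within run 1 on D9 (3 and 5 libraries) it was −0.47.

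The other members had no unadjusted p below 0.05. On D9, let-7a-1-3p averaged 76.8 CPM (SD 12.7) over 7 TBI+ rats and 79.0 CPM (SD 25.8) over 9 TBI− rats, and miR-98-3p was at 15.5 ± 5.26 and 19.1 ± 9.02 CPM. Their adjusted p values from edgeR were 0.995 and 0.959. On D2, let-7b-3p was at 57.2 ± 10.4 and 53.6 ± 20.5 CPM and let-7e-3p at 11.1 ± 6.39 and 14.3 ± 7.78 CPM, with adjusted p of 1 and 0.856. A p above the threshold does not show that the outcomes are alike.

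Between the days, let-7b-3p and let-7e-3p were called lower in the 16 TBI rats. Let-7e-3p was a member in view although it was not called against sham on either day. The day difference may thus have been in view, and these p values are descriptive. The main edgeR fits between days had no block for the rat, so they took its D2 and D9 libraries as independent. Let-7b-3p went from 55.2 ± 16.4 CPM on D2 to 32.5 ± 8.92 on D9 (SD, n = 16) and was lower on D9 in 15 of 16 rats (log2 fold change −0.74, SE 0.17, edgeR adjusted p = 0.000646). Its ranges overlapped, with 30.2 to 86.5 CPM on D2 and 18.1 to 50.7 CPM on D9. Let-7e-3p went from 12.9 ± 7.17 to 6.50 ± 4.00 CPM and was lower in 13 of 16 rats (log2 fold change −1.07, SE 0.30, adjusted p = 0.00507). TBI+ rat 4 and TBI− rat 4 rose, from 2 to 8 reads and from 8 to 7 reads in a smaller library, and TBI+ rat 6 rose from 5.48 to 5.89 CPM.

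MiR-98-3p moved the other way in TBI rats. It rose from 12.01 ± 5.02 to 17.5 ± 7.61 CPM (SD, n = 16) and was higher on D9 in 13 of 16 rats (log2 fold change 0.63, SE 0.22, adjusted p = 0.0264). With the rat as a block its adjusted p was 0.0946, over alternatives from 0.0142 to 0.947. So 3 of the 11 signals were called between the days in TBI rats, 1 higher and 2 lower, where 32.0% of 581 miRNAs were called (13.9% higher, 18.1% lower). The share of the signals is near that of all miRNAs. The median log2 fold change of the signals was −0.083, beside 0.056 over all miRNAs. The day comparisons use the same TBI libraries as the sham comparisons above.

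All 3 changes stood beside a rise of the hemolysis index in TBI rats, from −0.275 ± 0.645 on D2 to 1.28 ± 0.625 on D9 (SD, n = 16). Over the 40 libraries, Spearman's rho of CPM with the index was −0.69 for let-7b-3p, −0.59 for let-7e-3p and 0.23 for miR-98-3p, in libraries that also share their day. With the index as a covariate, the log2 fold change was −0.31 for let-7b-3p (adjusted p = 0.569), −0.20 for let-7e-3p (adjusted p = 0.856) and 0.10 for miR-98-3p (adjusted p = 0.947), so that none of the 3 was called. Over all alternatives the adjusted p ran from 7.14e-06 to 0.569 for let-7b-3p and from 0.00051 to 0.856 for let-7e-3p. The 5 red-cell markers with a row were miR-451-5p, miR-144-3p, miR-144-5p, miR-16-5p and miR-92a-3p, with none at 0. Their summed level ranged from 85444 to 163253 CPM in TBI rats on D2 and from 116182 to 257943 CPM on D9. Its median on D2 and D9 was 121485 and 146255 CPM in TBI rats, but 161491 and 118164 CPM in sham rats. Since the index itself differed between the days, the covariate cannot separate it from the day. With it, 46 of 581 miRNAs were called between the days in TBI rats, in place of 186. The part of blood cells in these changes was not tested.

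By outcome, let-7d-3p rose in TBI− rats. It was higher on D9 in 8 of 9 of them, at 0.812 to 2.86 times the D2 level (median 1.79), with a log2 fold change of 0.84 (SE 0.21, edgeR adjusted p = 0.00253). The same TBI− libraries lay behind the sham comparisons by which let-7d-3p was chosen (log2 fold change −1.19 on D2 and 1.20 on D9). This rise is therefore a description, and no test is drawn from its p. In TBI+ rats let-7d-3p was higher in 3 and lower in 4 of 7, with a log2 fold change of −0.38 (SE 0.24, adjusted p = 0.269). The difference between these 2 changes was −1.22 (SE 0.32) with an adjusted p of 0.189 by edgeR, where 0% of 581 miRNAs were called (42 had an unadjusted p below 0.05), and 0.0392 by DESeq2, where let-7d-3p was the 1 miRNA called. Over all alternatives this adjusted p lay between 0.0392 and 1. It was therefore not shown by the main test that TBI+ and TBI− rats differed in the change of let-7d-3p.

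The let-7d-3p change moved with the passage between runs of library numbers. The 4 TBI+ rats that passed from run 1 to run 3 all fell, to between 0.419 and 0.631 of their D2 level. The 3 TBI+ and 4 TBI− rats that passed from run 2 to run 1 all rose, to 1.03 to 2.86 times D2. The 4 sham rats passed from run 1 to run 3 and fell to between 0.269 and 0.467 of D2. TBI− rats 5 and 6, whose libraries were both placed in run 2, rose to 2.09 and 1.79 times D2, and rat 6 would have passed from run 3 to run 2 with its D2 library in run 3. Of those that left run 3, TBI− rat 9 was at 2.72 times D2, rat 7 at 1.60 and rat 8 at 0.812. With the run as a term, the TBI− change was 0.37 (adjusted p = 0.326; 0.33 and 0.435 with the D2 library of TBI− rat 6 in run 3), with the library number as a linear term 0.48 (adjusted p = 0.128), and with the hemolysis index as a covariate 0.86 (adjusted p = 0.0533), over alternatives from 0.00111 to 0.435.

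**Figure D3:**
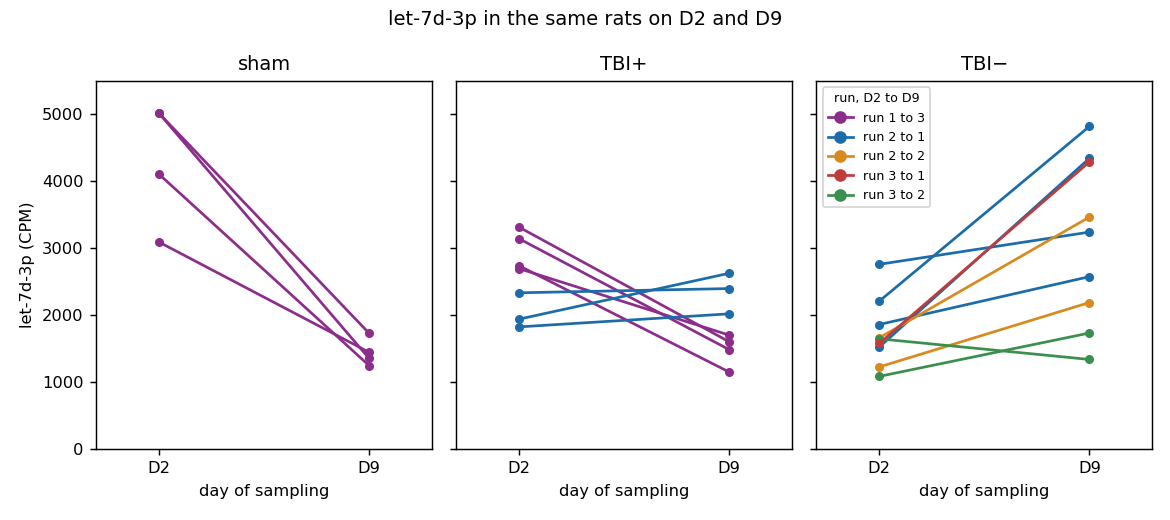
Let-7d-3p in CPM (linear axis from 0) in each rat on D2 and D9, with 1 line per rat coloured by the runs of library numbers its libraries lay in. All 8 rats that passed from run 1 to run 3 fell, whether sham or TBI+, and all 7 that passed from run 2 to run 1 rose.

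In TBI− rats let-7b-3p also fell (log2 fold change −0.78, SE 0.24, edgeR adjusted p = 0.0148; with the rat as a block, adjusted p = 0.0776, over alternatives from 0.00176 to 0.644). This made 2 signals called in TBI− rats, where 20.1% of 581 miRNAs were called (7.23% higher, 12.9% lower). In TBI+ rats edgeR called 0 of the 11 signals, where it called 16.0% of all miRNAs (4.82% higher, 11.2% lower), and 2 signals had an unadjusted p below 0.05. DESeq2 called 1, let-7b-3p. Let-7b-3p was lower on D9 in 7 of 7 TBI+ rats, with a log2 fold change of −0.68 (SE 0.27, adjusted p = 0.0756), close to the value in TBI− rats.

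In sham rats the D2 and D9 libraries are the ones that the sham comparisons rest on, so their difference is described only. Let-7d-3p, let-7a-1-3p, let-7b-3p and miR-98-3p were each lower on D9 in 4 of 4 sham rats, with log2 fold changes of −1.55 (SE 0.36), −1.62 (SE 0.41), −1.42 (SE 0.40) and −2.77 (SE 0.79). These were the 4 signals called by edgeR, where 6.71% of 581 miRNAs were called (2.93% higher, 3.79% lower), and 2 with the rat as a block (let-7a-1-3p and let-7d-3p). None of the 4 was called without sham rat 2, and let-7d-3p alone without sham rat 3. Let-7b-3p had 62.3, 80.2, 104.2 and 53.3 CPM on D2 and 35.6, 24.7, 9.90 and 39.1 CPM on D9, and is the one member called lower in both sham and TBI rats. The median over the signals was −1.30, beside 0 over all miRNAs.

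The 5p strands of the same family all moved in the same direction in TBI rats. Of the 11 signals, 5 had a positive log2 fold change there and 6 a negative one. Of the 9 let-7 5p and miR-98-5p rows, 7 had reads, at mean levels between 310 CPM (miR-98-5p) and 25628 CPM (let-7c-5p), and all 7 rose from D2 to D9 in TBI rats by log2 fold changes of 0.48 to 0.91 (edgeR, 7 of 7 called, 13.9% of 581 miRNAs called higher). With the hemolysis index as a covariate, an alternative added after seeing the data, none of the 7 was called (log2 fold changes of −0.075 to 0.25, lowest adjusted p 0.595), where 46 of 581 miRNAs were. Without it, let-7b-5p rose by 0.50 (SE 0.15, adjusted p = 0.00967) while let-7b-3p fell. In sham rats, which are described only, 5 of the 7 had a negative log2 fold change from D2 to D9 and 2 a positive one. There 1 of them was called higher, where 2.93% of 581 miRNAs were. Let-7d-5p and let-7e-5p were listed at 0 in all 40 libraries although their 3p strands had 106593 and 449 reads. In RefSeq, both are overlapped on the opposite strand by another mature miRNA (miR-3596b and miR-3596c), which was also listed at 0. Hence the 3p level could not be set against its 5p strand for these 2 hairpins.

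**Figure D4:**
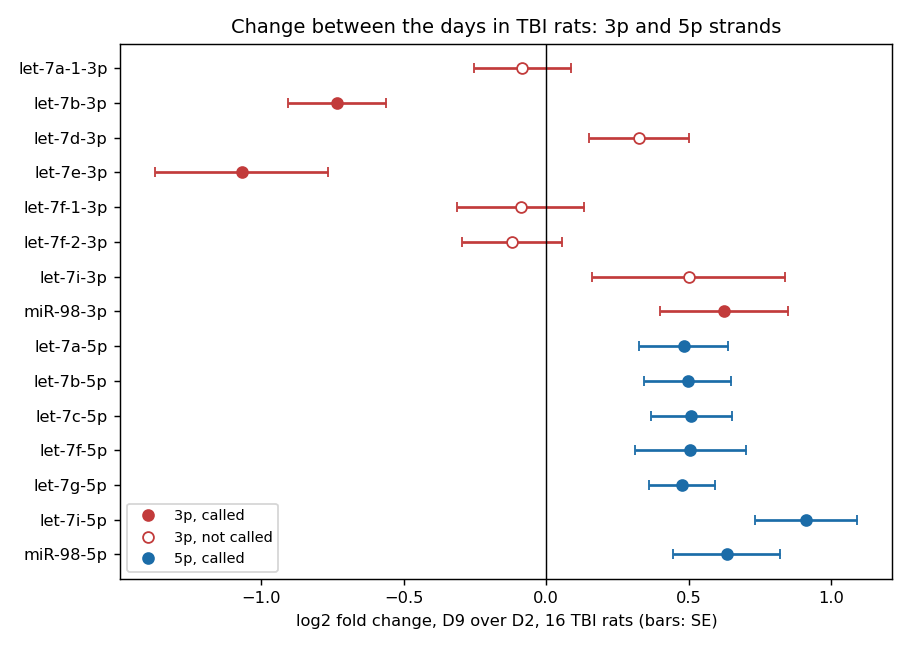
Log2 fold change from D2 to D9 in 16 TBI rats (horizontal axis) for 8 of the 3p signals (red) and the 7 measured 5p strands (blue), with SE bars. Filled points were called by edgeR, open ones were not. All 5p strands lie right of 0, while let-7b-3p and let-7e-3p lie left of it.

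The ratio of the strands of 1 hairpin is taken within a library, although with few 3p reads it still depends on depth through the pseudocount. It was taken as log2 of (3p reads + 1) over (5p reads + 1) for let-7a, let-7b, let-7f, let-7i and miR-98. Let-7d and let-7e had no 5p reads and let-7g too few 3p reads. Let-7c was left out because let-7c-2-3p cannot be told from let-7a-1-3p, so the let-7a ratio may hold reads of let-7c-2. Let-7b-3p made up 0.736% ± 0.340 of let-7b reads in TBI rats on D2 and 0.306% ± 0.131 on D9 (SD, n = 16). The log2 ratio fell by 1.22 (SD 0.927), in 15 of 16 rats (exact permutation test over sign flips, two-sided, p = 0.000153). It fell by 0.61 for let-7i, in 12 of 16 rats (exact p = 0.0127), and by 0.60 for let-7a, in 12 of 16 (exact p = 0.0410). For let-7f it differed by −0.60 (exact p = 0.0610) and for miR-98 by −0.11 (exact p = 0.722). These are 5 tests, chosen after seeing the data, with raw p values. The fall for let-7b follows from the 3p fall and the 5p rise already given for the same libraries. Those for let-7a and let-7i stand beside 5p rises already called there. The ratio tests are therefore not separate evidence, and the hemolysis index was not a covariate in them. For let-7a and let-7f the 5p row sums 2 hairpins, 1 of which is overlapped on the opposite strand. In sham rats the smallest p that 4 rats allow is 0.125, and the let-7b ratio was lower on D9 in 4 of 4 (difference −1.33, SD 1.17).

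Between TBI+ and TBI− rats, 10 such ratios were tested, 5 on each day. The lowest p was that of miR-98 on D2, with a log2 ratio of −4.60 ± 0.511 in TBI+ (n = 7) and −4.01 ± 0.535 in TBI− rats (n = 9; two-sided p = 0.0432 by the exact permutation test). It was the 1 of 10 under 0.05, and it was above 0.05 with a pseudocount of 0.5 and after thinning. The other 9 lay between 0.155 and 0.977.

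Members differed in how closely their levels followed each other. The let-7a-1 and let-7d hairpins are known to lie in the same cluster, and Spearman's rho between their 3p strands was 0.17 over the 40 libraries, which share groups, days and runs. Let-7f-1-3p had a rho of 0.42 with let-7a-1-3p and of 0.24 with let-7d-3p over the same libraries. Let-7f-2 and miR-98, also known neighbours, had a rho of 0.11. Over the 20 libraries of a day, rho between let-7a-1-3p and miR-98-3p was 0.82 on D9 and 0.071 on D2. It was 0.76 on D2 and 0.24 on D9 between let-7a-1-3p and let-7f-2-3p, and 0.70 and −0.19 between let-7b-3p and let-7d-3p. The miRNAs most like let-7d-3p, among 269 with a mean of at least 10 CPM, were miR-1249 (rho 0.74), let-7f-5p (0.74), miR-98-5p (0.73), miR-18a-3p (0.70) and miR-345-3p (0.70). Of these, let-7f-5p and miR-98-5p had run terms close to that of let-7d-3p, with log2 values of −0.87 and −0.81 for run 3 against run 1. Most like let-7a-1-3p, among 268, were miR-148a-3p (0.55), let-7f-2-3p (0.53), miR-500-3p (0.52), miR-98-3p (0.51) and miR-374-5p (0.50). The rho of let-7a-1-3p with the library total was 0.54 and that of miR-98-3p 0.41, while that of let-7d-3p was −0.08.

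Among miRNAs of clusters that hold let-7 hairpins (miR-99b-5p and miR-125a-5p beside let-7e; miR-99a-5p, miR-125b-5p and miR-100-5p in the related clusters), all 5 had a negative log2 fold change from D2 to D9 in TBI rats and 4 were called lower, where 18.1% of 581 miRNAs were. MiR-125a-5p was not called (−0.35, edgeR adjusted p = 0.102). MiR-99a-5p and miR-100-5p, both among the 4, had nearly the same counts. In TBI rats they had 33147 and 33676 reads on D2 and 19142 and 19625 on D9. They may be 1 signal counted 2 times. MiR-99b-5p, the neighbour of let-7e, fell by 1.14 on the log2 scale (SE 0.18, edgeR adjusted p = 2.18e-06), beside the fall of 1.07 of let-7e-3p. With the hemolysis index as a covariate, chosen after seeing the data, the values were −0.74 for miR-99b-5p (adjusted p = 0.0802) and −0.20 for let-7e-3p (adjusted p = 0.856), and none of the 5 was called, where 46 of 581 miRNAs were. None of the 5 was called between TBI+ and TBI− rats on either day (lowest adjusted p 0.884).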

How the data were processed

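Small RNA libraries (TruSeq Small RNA) were made from plasma. Per the labels and the study's methods, the authors checked reads with FastQC 11.8, trimmed them with Trimmomatic 0.36, merged both flow cells, aligned them with Bowtie2 to the rat genome build Rno6 and counted them on miRBase miRNAs with featureCounts (Subread). Whether the counting used the strand is not given in the sources used here. The deposited values are raw read counts without normalization for 752 miRNAs, and 581 had a read.

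CPM used library totals. Comparisons used edgeR's quasi-likelihood test (TMM) with Benjamini-Hochberg adjustment over all miRNAs with a read on that day (565 on D2, 541 on D9) or, between days, in any library (581), called at an adjusted p below 0.05. The SE is the log2 fold change divided by the root of the F statistic. All libraries of the day, or all 40, entered the fit. Strand ratios used exact permutation tests with a pseudocount of 1. The members and lists were chosen with earlier results of these data known. Other miRNAs are named as 5p strands of the family, as the 5 most like let-7d-3p or let-7a-1-3p by Spearman's rho, as miRNAs of let-7 clusters, or as markers.

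D2 and D9 libraries of 1 number come from the same rat. The main fits between days left this pairing out, and the rat as a block was an alternative. The deviations of a rat's libraries from their group means had correlations between −0.345 and 0.403 (median −0.055, 20 rats). A check for libraries with the same counts found 0 pairs. Alternatives were DESeq2, RLE scaling, library totals, scaling to miR-28-3p, filterByExpr, random thinning (seed 1), a block of rat or animal number, the hemolysis index, 1 run of library numbers, the near-identical pair entered once, each sham rat left out and, chosen after seeing the data, the run as a term, the same with the last library of run 2 in run 3, and the library number as a linear term. P-values measure the spread between these rats, except in the main fits between days, which took the D2 and D9 libraries of a rat as independent.

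Of the marker lists, platelet and endothelial miR-126a-3p and miR-223-3p had reads, with miR-126a-5p at 0. They summed to 1466 to 8081 CPM in TBI rats and 2641 to 5103 CPM in sham rats. Lymphocyte and myeloid markers summed to 12326 to 87698 CPM, with all 3 detected. Liver miR-122-5p was at 0, and muscle markers reached at most 12.3 CPM, with 2 of 3 at 0. Neuronal markers summed to 1757 to 15200 CPM, with all 4 detected in some library. Of these, miR-128-3p held 305534 reads over the 40 libraries, beside 1872 of miR-129-5p and 2 of miR-9a-5p. In the sham libraries of each day, 2 of the 4 neuronal markers were at 0. MiR-486 had no row by that name. Tables and figures were made in Python 3.11.15 with numpy 2.4.6, matplotlib 3.10.9, pandas 2.3.3 and scipy 1.17.1, and the fits with DESeq2 1.42.0 and edgeR 4.0.16 in R 4.3.3.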

Additional observations from a re-analysis of the deposited data

Results flagged for a closer look

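In 62 combinations of signal, group and day with any spread, the highest or lowest library was set against its group with Dixon's criterion. Chance alone exceeds it in about 1 of 20 groups of normally distributed values. With counts near 0, a single read among empty libraries can exceed it, so that rate does not hold for such signals. The criterion was exceeded 8 times, each time by a highest library and, apart from let-7i-3p, in signals of very few reads. Let-7g-3p reached 3.82 CPM (5 reads) in sham rat 2 on D2, where the other 3 were at 0. It reached 9.92 CPM (5 reads) in TBI+ rat 4 on D2, 4.61 CPM (6 reads) in TBI− rat 8 on D2 and 9.03 CPM (3 reads) in TBI− rat 2 on D9. Let-7c-1-3p reached 12.4 CPM (5 reads) in TBI− rat 3 on D2 and 2.79 CPM (1 read) in sham rat 4 on D9. Let-7a-2-3p reached 1.45 CPM (2 reads) in TBI− rat 7 on D2.

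Let-7i-3p was at 60.2 CPM (20 reads) in TBI− rat 2 on D9, while the other 8 TBI− libraries of D9 lay between 4.54 and 28.5 CPM. This is the same library that was lowest of all TBI rats on D9 for let-7a-1-3p (21.1 CPM, 7 reads) and miR-98-3p (3.01 CPM, 1 read), and it was the TBI library with the smallest total of that day (332161 reads). The part of its depth in these values was not tested.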

How the results depend on the processing

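The number of the 11 signals called was compared with each alternative. Scaling to miR-28-3p called 0 for TBI against sham on D2 in place of 1, 1 on D9 in place of 2, 0 for TBI− against sham on D9 in place of 3, and 0 between days in sham in place of 4. Thinning called 0 for TBI and 0 for TBI− against sham on D9, and between days 1 in sham, 1 in TBI (in place of 3) and 1 in TBI− rats (in place of 2). Within 1 run, TBI against sham gave 0 on D2 and 0 on D9. The run as a term gave 0 for TBI and for TBI− against sham on D2, 0 for both on D9, 1 between days in sham and 0 in TBI−. With the last library of run 2 in run 3 it gave 0 for each of these, and the library number as a linear term gave 0 for TBI and TBI− against sham on both days, 1 between days in sham and 1 in TBI−. The hemolysis index gave 0 between days in TBI and 0 in TBI−. DESeq2 gave 1 in place of 0 for TBI+ against sham on D9, for the days in TBI+ and for the day change of TBI+ against TBI−, and 4 for the days in TBI−, and filterByExpr gave 1 for the days in TBI+. Leaving out each sham rat gave 1 to 1 (TBI), 0 to 1 (TBI+) and 1 to 1 (TBI−) against sham on D2, 0 to 1 for all 3 on D9, and 0 to 3 between days in sham. Within 1 run, TBI− against sham could not be compared. The causes were not tested, except that thinning removes reads and 1 run holds fewer libraries.

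The rat as a block gave 2 signals between days in sham and 1 in TBI−, 2 in TBI, 0 in TBI+ and 0 for their difference. The animal number as a replicate block gave 0 in place of 1 for TBI against sham on D2, 0 in place of 2 on D9 and 0 in place of 3 for TBI− against sham on D9, and changed no other count of signals (between the outcomes on D2 it called 3 of 565 miRNAs, none of them a signal). Across groups these numbers are only names: 7 of 30 same-numbered pairs had correlated deviations above 0.1 (range −0.460 to 0.306), and in 7 of 60 comparisons, each pair being seen from both ends, the library correlated best with its own number.

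For the strand ratios of TBI+ against TBI−, a pseudocount of 0.5 and thinning each left 0 of 10 past the threshold in place of 1, and thinning turned the let-7i difference on D9 from −0.18 to 0.043. For let-7a-1-3p, let-7b-3p, let-7d-3p, let-7e-3p and miR-98-3p, in the comparisons that called them (let-7d-3p in all), no direction reversed under the alternatives run. Of these 352 values, 242 kept their side of the threshold, 108 lost it and 2 gained it. Depth limits the sham libraries of D9 most.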

Other observations

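The 2 family members listed at 0, let-7d-5p and let-7e-5p, were part of a wider pattern in the count matrix. By RefSeq (GRCr8, used for neighbours only), 87 of the miRNAs with a row and a mapped mature sequence are overlapped, at every genomic copy, by another mature miRNA on the opposite strand. Of these, 84 had no read in any of the 40 libraries. Among 593 miRNAs with no such overlap, 70 had none. The 5 miRNAs with only some copies overlapped, let-7a-5p and let-7f-5p among them, all had reads. Among the markers, miR-126a-5p, miR-1-3p and miR-133a-3p, all at 0, are overlapped, while miR-122-5p, also at 0, is not. None of the 11 let-7 3p and miR-98-3p sequences with a RefSeq entry is overlapped in this way. The reads themselves were not analysed here, and the authors' handling of reads that overlap 2 annotations is not given in the sources used here.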
